A study of Mus musculus with 18 samples.

Results

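Cish, Socs1, Socs2, Socs3, Pim1, Pim2 and Pim3 are 7 genes that encode short-lived responders to cytokine signals: the feedback inhibitors CIS, SOCS1, SOCS2 and SOCS3, and the serine/threonine kinases Pim-1, Pim-2 and Pim-3. They were chosen by symbol and known role, with no threshold on any contrast, but with the levels of these libraries in all groups already known. Their levels and differences are therefore a description, and each adjusted p is the one that the gene holds in a fit across all genes. The count table had 23337 gene rows, of which 15582 held a count in the libraries and 11118 passed the filter on low counts, and all 7 genes passed it.

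The libraries were made from thymic invariant NKT cells, T cells with a semi-invariant receptor that recognises glycolipids on CD1d. WT and SKG mice were compared. SKG mice carry a spontaneous point mutation in an SH2 domain of Zap70, the kinase that relays T cell receptor signals, which lowers its function. Both genotypes had the BALB/c background and were F3 offspring of crosses between BALB/cJ and SKG mice, and the age, sex and number of mice behind a library are not given in the sources used here. The subsets, which differ in the cytokines they make, were sorted as CD1d tetramer+ cells: NKT1 as ICOSlo CD49a+, NKT2 as CD49a- Sdc-1- ICOShi CD4hi TCRbetahi, and NKT17 as CD49a- ICOShi Sdc-1+. Each of the 6 groups had 3 libraries, numbered here in accession order.

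Most cytokine receptors of lymphocytes lack a kinase domain and signal through JAK kinases, which phosphorylate STAT transcription factors. STAT dimers enter the nucleus and bind palindromic sites near their target genes, and genes of the CIS/SOCS family are among the first to be transcribed. Their proteins carry an SH2 domain, which binds phosphotyrosines of receptors or JAKs, and a SOCS box, which recruits a ubiquitin ligase, so that they limit the signal that induced them. Pim kinases are active as soon as they are made, so that their amount, set in part by STATs, sets their activity. They favour survival, growth and protein synthesis. In thymic NKT cells, IL-15 sustains NKT1 cells and IL-7 sustains NKT17 cells, and both cytokines act through STAT5.

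The start-site sequences of these genes are shown because STAT dimers recognise a short palindrome there. RefSeq windows on GRCm38.p6, each with 250 bases before and 50 bases from the annotated start, were found for 6 of the 7 genes, with a pair of windows for Pim1. The motif searched was TTCNNNGAA, which is its own reverse complement, so that both strands were covered at once. It occurred in 8.30% of all 32851 windows of this length, and 0.457% held it 2 times or more. The Cish window (chr9:107296409-107296708, + strand) held it 2 times, TTCCTGGAA at positions 1 to 9 and TTCTTGGAA at positions 12 to 20, counted from 1 at the start site. The Socs3 window (chr11:117969317-117969616, - strand) held it 1 time, TTCTTAGAA at positions -154 to -146. The windows of Socs1, Pim1, Pim2 and Pim3 held no match to these letters. The longer form TTCNNNNGAA, found in 6.95% of windows, had no match in any of the members' windows. A match is a description of the letters and not evidence of binding. Both windows with a match are given 5′ to 3′ on the gene's strand, with the motif in capitals.
Cish: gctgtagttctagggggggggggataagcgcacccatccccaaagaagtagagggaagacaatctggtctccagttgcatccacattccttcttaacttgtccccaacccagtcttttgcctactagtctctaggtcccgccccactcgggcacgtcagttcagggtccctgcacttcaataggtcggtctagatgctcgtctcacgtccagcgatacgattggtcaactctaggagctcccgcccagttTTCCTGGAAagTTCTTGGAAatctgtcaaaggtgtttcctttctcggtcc
Socs3: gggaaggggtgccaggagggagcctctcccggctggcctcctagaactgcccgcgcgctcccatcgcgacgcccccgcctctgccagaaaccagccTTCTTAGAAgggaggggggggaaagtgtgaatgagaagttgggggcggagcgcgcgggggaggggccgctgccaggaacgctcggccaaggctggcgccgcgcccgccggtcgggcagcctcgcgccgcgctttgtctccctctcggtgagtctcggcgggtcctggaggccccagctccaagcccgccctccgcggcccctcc

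The libraries held 4391029 to 8895917 counts each, and levels are given as CPM, edgeR's read count of a gene scaled to the size of its library with TMM factors, which ran from 0.928 to 1.07. In each subset, the markers that define it were present: the 6 NKT1 markers, which include Tbx21 and Cxcr3, summed to at least 3973 CPM in NKT1 and at most 422 CPM in the other subsets, and the 6 NKT17 markers, which include Il23r, to at least 2163 CPM in NKT17 and at most 13.9 CPM elsewhere. The 6 NKT2 markers, which include Zbtb16 and Il4, are in part shared and summed to 1662 to 2451 CPM in NKT2, 1389 to 1531 CPM in NKT17 and 513 to 745 CPM in NKT1. The Zap70 mutation is a point mutation, which counts per gene cannot check. In bulk libraries of sorted cells, fewer cells that express a gene and less RNA per cell cannot be told apart. Nothing in the sources used here says whether the libraries of a group came from separate mice, so the p-values measure the spread between these libraries.

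To be called, a difference needed a fold change of at least 1.5 and, in edgeR's quasi-likelihood test, a p under 0.1 after Benjamini-Hochberg adjustment over the 11118 genes, thresholds after those of the study. Set per kb of the longest coding transcript, which makes levels comparable between genes, Pim2 stood highest in WT NKT1 at 221 ± 17.1 CPM per kb (SD, n = 3). In WT NKT2, Socs1 stood highest at 43.7 ± 4.38 CPM per kb. In WT NKT17, Socs3 at 121 ± 11.4, Pim2 at 112 ± 16.9 and Socs1 at 103 ± 10.2 CPM per kb lay within one another's spread. Socs1 was thus the highest per kb in NKT2, where the other members were low. In SKG cells the leading gene per kb was Socs1 in NKT1, at 93.2 ± 11.0 CPM per kb, and in NKT2, at 64.5 ± 6.43 CPM per kb, and Pim2 in NKT17, at 179 ± 17.9 CPM per kb. Pim1 and Pim2 in SKG NKT1, at 86.4 ± 7.22 and 82.7 ± 9.71 CPM per kb, lay within the spread of Socs1. Socs2 was lowest per kb in NKT2 of both genotypes, at 0.298 ± 0.227 CPM per kb in WT and 0.729 ± 0.630 CPM per kb in SKG. It was also the lowest in WT NKT1, at 17.6 ± 2.08 CPM per kb, within the spread of Pim3 at 20.1 ± 4.37 CPM per kb. With the length of all annotated exons in place of the coding transcript, Cish stood in place 6 in WT NKT1 in place of 4, as its annotated exons add up to 6419 bases and its longest coding transcript to 2850. Other places moved too. With that length Pim2 in SKG NKT17, at 131 ± 13.1 CPM per kb, lay within the spread of Socs1 at 114 ± 20.8 CPM per kb.

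**Figure D1:**
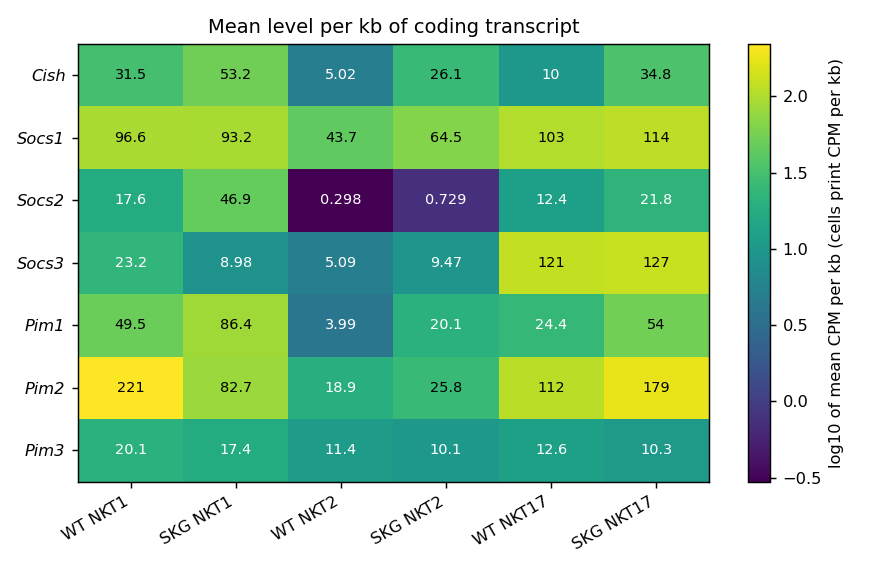
Mean level of each gene in each group, in CPM per kb of the longest coding transcript (colour on a log10 scale, values printed in the cells, 3 libraries per group). Socs1 held 43.7 to 114 CPM per kb in every group, while Socs2 ran from 0.298 in WT NKT2 to 46.9 in SKG NKT1.

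Without the mutation, the subsets differed widely. All 7 genes were higher in WT NKT1 than in WT NKT2, where 27.5% of all tested genes were called. Between WT NKT1 and WT NKT17, 5 were called (24.7% of all tested genes): Cish, Pim1, Pim2 and Pim3 were higher in NKT1, and Socs3 was higher in NKT17. Between WT NKT17 and WT NKT2, 6 were called, all higher in NKT17 (20.0% of all tested genes), and Pim3 was not called. These 3 comparisons share libraries in pairs and are not independent. The median log2 difference of the 7 genes was 2.65 for NKT1 against NKT2, 0.67 for NKT1 against NKT17 and 2.57 for NKT17 against NKT2, beside medians over all tested genes of 0.00, -0.01 and 0.01.

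In SKG cells, the levels of Socs3 in NKT1 and NKT2 overlapped (log2 -0.08, SE 0.31, adjusted p = 0.911). Socs1 was higher in every SKG NKT1 library than in any SKG NKT2 library (log2 0.53, SE 0.15, adjusted p = 0.0106) but, at 1.45-fold, missed the fold minimum. Between SKG NKT1 and SKG NKT2, 5 genes were called, all higher in NKT1 (18.7% of all tested genes): Cish, Socs2, Pim1, Pim2 and Pim3. Between SKG NKT1 and SKG NKT17, 5 were called (22.8%): Cish, Socs2 and Pim3 were higher in NKT1, and Socs3 and Pim2 were higher in NKT17. Between SKG NKT17 and SKG NKT2, 5 were called, all higher in NKT17 (18.8%): Socs1, Socs2, Socs3, Pim1 and Pim2. Pim2 thus turned from higher in NKT1 than in NKT17 in WT, by a log2 difference of 0.98 (SE 0.13, adjusted p = 1.88e-06), to lower in NKT1 in SKG, by a log2 difference of -1.11 (SE 0.13, adjusted p = 4.1e-07).

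**Figure D2:**
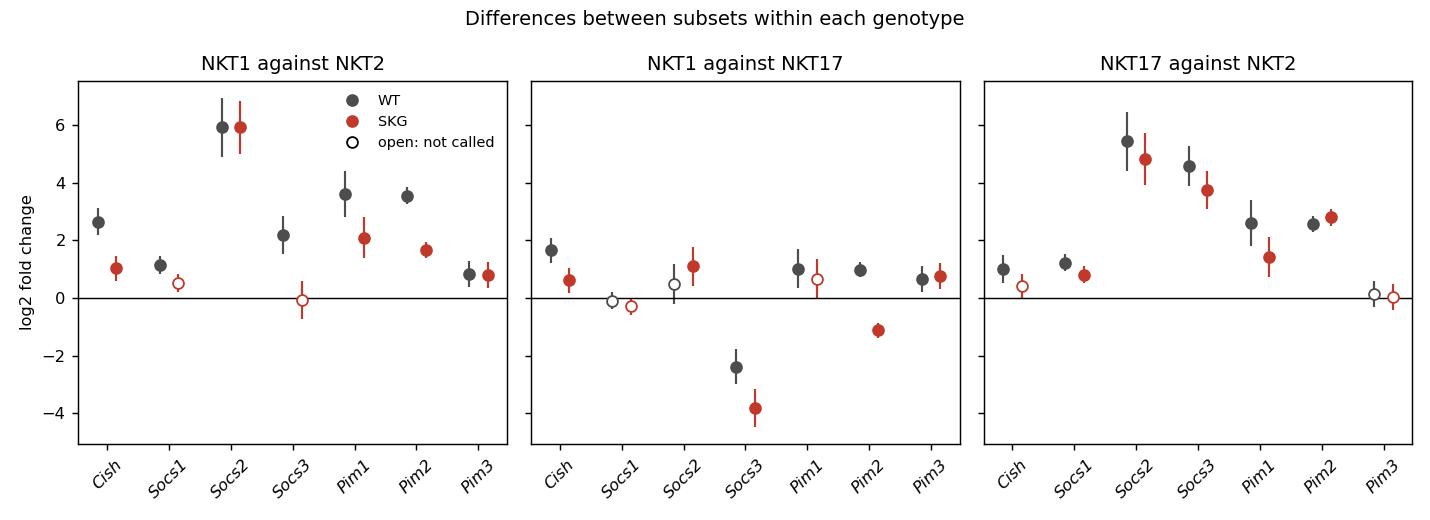
Log2 fold change between subsets for each gene, with the 95% confidence interval of the edgeR fit, in WT (grey) and SKG (red); filled points were called and open points were not. For NKT1 against NKT2 every WT point was called, with log2 values from 0.82 (Pim3) to 5.93 (Socs2), and the SKG value of Socs3 was -0.08 against 2.19 in WT.

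Between SKG and WT within a subset, 4 of the 7 genes were called in NKT1, where 3.27% of all tested genes were called: Cish and Socs2 rose, and Socs3 and Pim2 fell. In NKT2, 2 were called (7.95% of all tested genes), and both Cish and Pim1 rose. In NKT17, 3 were called (8.37% of all tested genes), and Cish, Pim1 and Pim2 rose. In NKT1 the median log2 difference of the 7 genes was -0.05, beside -0.01 over all tested genes. It was 0.89 in NKT2, beside 0.00, and 0.68 in NKT17, beside 0.01. Since the genes were listed with these values known, nothing is read from their counts against those shares.

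**Figure D3:**
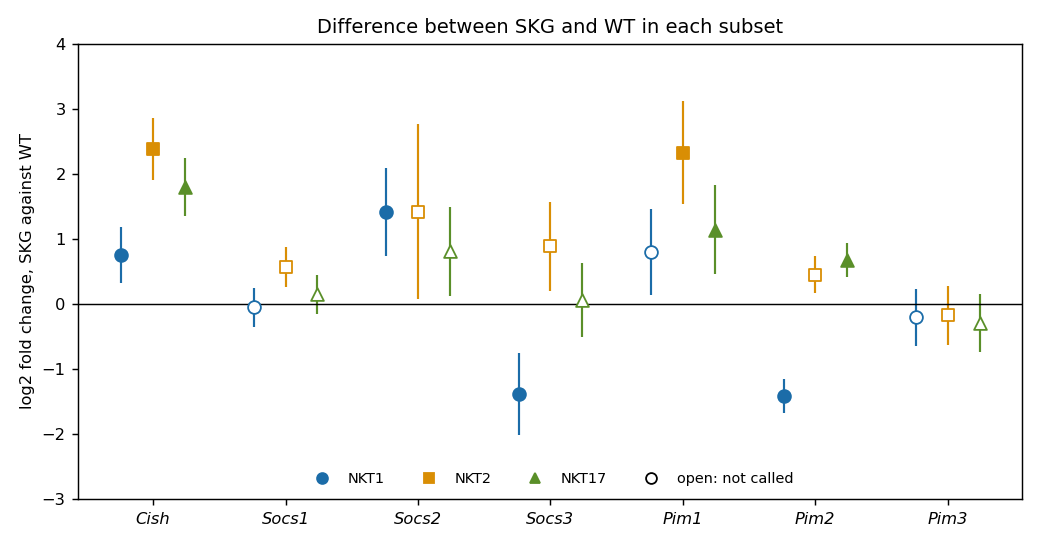
Log2 fold change of SKG against WT for each gene in NKT1 (circles), NKT2 (squares) and NKT17 (triangles), with the 95% confidence interval of the edgeR fit; filled symbols were called and open ones were not. Cish lay above 0 in all 3 subsets (0.76, 2.38 and 1.80), while Socs3 and Pim2 were called below 0 in NKT1 only (-1.38 and -1.42).

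Cish (ENSMUSG00000032578, chr9:107198357-107205115, + strand, NCBIM37) encodes CIS, a classical STAT5 target that binds receptor tails and restrains IL-2 and T cell receptor signals. In NKT1 the WT libraries held 104, 77.1 and 88.0 CPM and the SKG libraries 146, 146 and 162 CPM. In NKT2 they held 17.0, 9.79 and 16.2 CPM in WT and 78.2, 63.4 and 81.3 CPM in SKG. In NKT17 they held 35.7, 19.1 and 30.9 CPM in WT and 106, 75.0 and 117 CPM in SKG. Every SKG library lay above every WT library of its subset. In order, the group means were 152 ± 9.19 in SKG NKT1, 99.2 ± 21.7 in SKG NKT17, 89.7 ± 13.5 in WT NKT1, 74.3 ± 9.53 in SKG NKT2, 28.6 ± 8.54 in WT NKT17 and 14.3 ± 3.93 CPM in WT NKT2 (SD, n = 3). SKG NKT17 overlapped WT NKT1, and WT NKT1 overlapped SKG NKT2, so the SKG cells of the low subsets reached the range of WT NKT1. Cish was 5.20-fold higher in SKG NKT2 (log2 2.38, SE 0.23, adjusted p = 3.09e-07) and 3.47-fold higher in SKG NKT17 (log2 1.80, SE 0.22, adjusted p = 8.22e-06). The rise in NKT1 was 1.69-fold (log2 0.76, SE 0.21, adjusted p = 0.0502), and its call was lost when WT NKT1 replicate 2 or 3 or any of the 3 SKG NKT1 libraries was left out (adjusted p 0.104 to 0.157). Antisense transcripts overlap 740 of its exonic bases, and whether reads were counted by strand is not given in the sources used here, so that reads of the other strand may be included.

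Socs1 (ENSMUSG00000038037, chr16:10783901-10785629, - strand, NCBIM37) encodes SOCS1, which inhibits JAKs directly and limits interferon gamma, IL-2 and IL-4 signals. In NKT1 the WT libraries held 127, 102 and 124 CPM and the SKG libraries 124, 98.7 and 118 CPM. In NKT2 they held 53.8, 47.7 and 58.4 CPM in WT and 84.3, 69.7 and 81.9 CPM in SKG. In NKT17 they held 130, 134 and 111 CPM in WT and 154, 109 and 152 CPM in SKG. The genotypes overlapped in NKT1 and NKT17, and only in NKT2 did every SKG library lie above every WT library. The group means ran in order from 139 ± 25.4 in SKG NKT17, 125 ± 12.4 in WT NKT17, 118 ± 13.7 in WT NKT1 and 114 ± 13.4 in SKG NKT1 to 78.6 ± 7.85 in SKG NKT2 and 53.3 ± 5.34 CPM in WT NKT2 (SD, n = 3). The first 4 of these overlapped. The difference in NKT2 had an adjusted p of 0.0190 but a fold of 1.48 (log2 0.56, SE 0.15), under the minimum of 1.5, and was not called. In NKT1 the log2 difference was -0.05 (95% confidence interval -0.35 to 0.25) and in NKT17 it was 0.15 (-0.15 to 0.45). WT NKT1 exceeded WT NKT2 by 2.21-fold (log2 1.15, SE 0.15, adjusted p = 2.28e-06).

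Socs2 (ENSMUSG00000020027, chr10:94847996-94879814, - strand, NCBIM37) encodes SOCS2, best known for limiting growth hormone signals and also induced by STAT5. In NKT1 the WT libraries held 70.4, 68.6 and 84.7 CPM and the SKG libraries 205, 216 and 176 CPM. In NKT17 they held 38.5, 48.9 and 70.5 CPM in WT and 102, 72.2 and 103 CPM in SKG. In NKT2 the gene was near its floor, with 11, 7 and 2 counts in WT and 10, 5 and 38 counts in SKG. The genotypes were separate in NKT1 and NKT17 and overlapped in NKT2. Socs2 had the largest distance between subsets among the 7 genes, 60.9-fold between WT NKT1 and WT NKT2 (log2 5.93, SE 0.48, adjusted p = 9.59e-08). In order the means were 199 ± 21 in SKG NKT1, 92.4 ± 17.5 in SKG NKT17, 74.5 ± 8.82 in WT NKT1, 52.6 ± 16.4 in WT NKT17, 3.09 ± 2.68 in SKG NKT2 and 1.26 ± 0.963 CPM in WT NKT2 (SD, n = 3). SKG NKT17 overlapped WT NKT1, WT NKT1 overlapped WT NKT17, and the NKT2 groups overlapped. Socs2 rose 2.67-fold in SKG NKT1 (log2 1.42, SE 0.32, adjusted p = 0.0246). In NKT17 the log2 difference of 0.81 (SE 0.32, adjusted p = 0.150) did not pass the test. In NKT2 the log2 difference of 1.42 (SE 0.63, adjusted p = 0.210) rested on a single SKG library, and without SKG NKT2 replicate 3 it was 0.37.

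Socs3 (ENSMUSG00000053113, chr11:117827393-117831361, - strand, NCBIM37) encodes SOCS3, which binds gp130 and other STAT3-activating receptors and inhibits the attached JAK. Its level marked NKT17 in both genotypes. In NKT17 the WT libraries held 307, 280 and 339 CPM and the SKG libraries 306, 299 and 364 CPM. In NKT1 they held 74.7, 29.6 and 73.2 CPM in WT and 16.7, 32.1 and 19.9 CPM in SKG. In NKT2 they held 13.3, 12.6 and 13.1 CPM in WT and 28.6, 26.0 and 17.8 CPM in SKG. The genotypes overlapped in NKT17 and, through WT NKT1 replicate 2, in NKT1. They were separate in NKT2. The means ran in order from 323 ± 35.9 in SKG NKT17 and 309 ± 29.1 in WT NKT17 to 59.2 ± 25.6 in WT NKT1, 24.2 ± 5.64 in SKG NKT2, 22.9 ± 8.10 in SKG NKT1 and 13.0 ± 0.363 CPM in WT NKT2 (SD, n = 3). The NKT17 groups overlapped each other, as did SKG NKT2 and SKG NKT1. Socs3 was 23.8-fold higher in WT NKT17 than in WT NKT2 (log2 4.57, SE 0.33, adjusted p = 3.13e-08) and 5.20-fold higher than in WT NKT1 (log2 2.38 as NKT17 against NKT1, SE 0.29, adjusted p = 7.56e-06). It fell in SKG NKT1 (log2 -1.38, SE 0.30, adjusted p = 0.0193), 2.61-fold lower than in WT. With only the NKT1 libraries in the fit the adjusted p was 0.150, and without WT NKT1 replicate 2, the low library, it was 6.47e-05. In NKT2 the log2 difference was 0.89 (SE 0.32, adjusted p = 0.116), which did not pass, although DESeq2 gave an adjusted p of 0.0226. In NKT17 it was 0.07 (95% confidence interval -0.51 to 0.64).

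Pim1 (ENSMUSG00000024014, chr17:29627757-29632390, + strand, NCBIM37) encodes Pim-1, the kinase of the family that is most often used as a readout of STAT5 and STAT3 activity. In NKT1 the WT libraries held 128, 103 and 62.2 CPM and the SKG libraries 169, 186 and 157 CPM. In NKT2 they held 7.77, 4.37 and 11.5 CPM in WT and 36.1, 35.4 and 47.4 CPM in SKG. In NKT17 they held 30.7, 39.5 and 74.0 CPM in WT and 115, 89.9 and 115 CPM in SKG. Every SKG library lay above every WT library of its subset, as for Cish. In order the means were 170 ± 14.2 in SKG NKT1, 107 ± 14.5 in SKG NKT17, 97.6 ± 33.1 in WT NKT1, 48.0 ± 22.9 in WT NKT17, 39.6 ± 6.70 in SKG NKT2 and 7.87 ± 3.56 CPM in WT NKT2 (SD, n = 3). Only the extremes were separate from their neighbours: the groups from SKG NKT17 down to SKG NKT2 each overlapped the next. Pim1 was 5.01-fold higher in SKG NKT2 (log2 2.32, SE 0.37, adjusted p = 0.000700) and 2.20-fold higher in SKG NKT17 (log2 1.14, SE 0.32, adjusted p = 0.0366). The call in NKT17 was lost without WT NKT17 replicate 1 or 2 or SKG NKT17 replicate 1 or 3 (adjusted p 0.129 to 0.150). With a replicate block by title token it was lost too (adjusted p = 0.103). In NKT1 the log2 difference of 0.80 (SE 0.31, adjusted p = 0.253) did not pass, with the WT libraries spread over a range of 62.2 to 128 CPM. A noncoding RNA on the other strand overlaps 468 of its exonic bases.

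Pim2 (ENSMUSG00000031155, chrX:7455388-7460558, + strand, NCBIM37) encodes Pim-2, a kinase that supports survival and protein synthesis in lymphocytes. In NKT1 the WT libraries held 478, 412 and 465 CPM and the SKG libraries 166, 190 and 151 CPM. In NKT2 they held 42.9, 41.2 and 31.5 CPM in WT and 51.5, 53.6 and 52.8 CPM in SKG. In NKT17 they held 202, 268 and 215 CPM in WT and 403, 330 and 365 CPM in SKG. The genotypes were separate in all 3 subsets, with SKG below WT in NKT1 and above WT in NKT2 and NKT17. The means ran in order from 452 ± 34.9 in WT NKT1, 366 ± 36.6 in SKG NKT17, 229 ± 34.6 in WT NKT17 and 169 ± 19.9 in SKG NKT1 to 52.7 ± 1.06 in SKG NKT2 and 38.6 ± 6.15 CPM in WT NKT2 (SD, n = 3), and no neighbours in this order overlapped. Pim2 fell in SKG NKT1 (log2 -1.42, SE 0.13, adjusted p = 7.81e-07), 2.67-fold lower than in WT. It rose 1.60-fold in SKG NKT17 (log2 0.68, SE 0.13, adjusted p = 0.000995). The difference in NKT2 had an adjusted p of 0.0426 and a fold of 1.37 (log2 0.45, SE 0.14), under the minimum, and was not called.

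Pim3 (ENSMUSG00000035828, chr15:88692616-88696150, + strand, NCBIM37) encodes Pim-3, the third kinase of the family. Its group means lay close together, from 48.6 ± 10.6 in WT NKT1 and 42.2 ± 9.18 in SKG NKT1 to 30.6 ± 6.90 in WT NKT17, 27.6 ± 5.42 in WT NKT2, 25.0 ± 2.53 in SKG NKT17 and 24.4 ± 1.04 CPM in SKG NKT2 (SD, n = 3), and each group overlapped the next. In NKT1 the WT libraries held 60.4, 39.9 and 45.5 CPM and the SKG libraries 43.8, 32.3 and 50.4 CPM. The genotypes also overlapped in NKT2, with 22.5 to 33.3 CPM in WT and 23.3 to 25.4 CPM in SKG, and in NKT17, with 24.2 to 37.9 and 22.2 to 27.2 CPM. No difference between SKG and WT passed: the log2 values were -0.21 (95% confidence interval -0.65 to 0.23) in NKT1, -0.17 (-0.63 to 0.28) in NKT2 and -0.30 (-0.75 to 0.15) in NKT17. NKT1 exceeded NKT2 by 1.77-fold in WT (adjusted p = 0.00495) and by 1.73-fold in SKG (adjusted p = 0.0105).

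**Figure D4:**
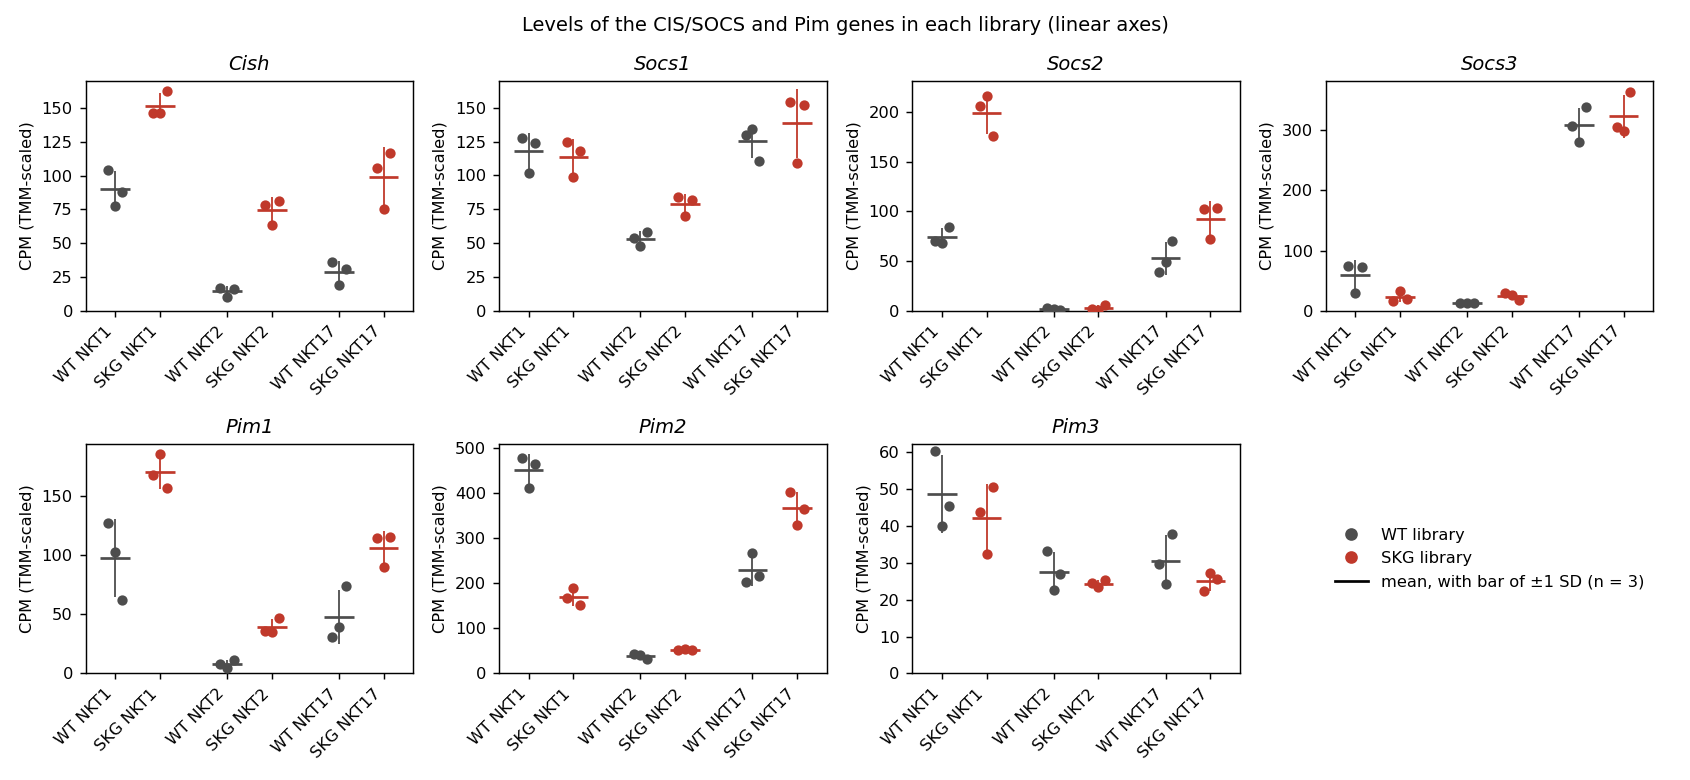
Level of each gene in each of the 18 libraries (points, TMM-scaled CPM on linear axes that start at 0 and differ between panels), with the group mean and a bar of 1 SD, WT in grey and SKG in red. The SKG points of Cish and Pim1 lie above the WT points in every subset, and those of Pim2 lie below in NKT1 (151 to 190 against 412 to 478 CPM) and above in NKT2 and NKT17.

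Whether the SKG difference itself varied between subsets was tested as a difference of log2 fold changes. Between NKT2 and NKT1, 3 of the 7 genes were called (3.87% of all tested genes). The values were 1.62 for Cish (SE 0.30, adjusted p = 0.00323), 1.87 for Pim2 (SE 0.19, adjusted p = 1.45e-06) and 2.27 for Socs3 (SE 0.44, adjusted p = 0.00806), each more positive in NKT2. Between NKT17 and NKT1 the same 3 genes were called (4.17% of all tested genes), with 2.10 for Pim2 (SE 0.18, adjusted p = 7.71e-07), 1.45 for Socs3 (SE 0.40, adjusted p = 0.0712) and 1.04 for Cish (SE 0.30, adjusted p = 0.0640). The calls of Socs3 and Cish in NKT17 against NKT1 were lost when single libraries were left out. For Socs3 these were WT NKT1 replicate 1 or 3, WT NKT17 replicate 1 or 2, SKG NKT1 replicate 1 or 3, and SKG NKT17 replicate 1 or 3 (adjusted p 0.122 to 0.170). For Cish they were WT NKT1 replicate 1, WT NKT17 replicate 2, SKG NKT1 replicate 1 or 2, and SKG NKT17 replicate 1 or 3 (adjusted p 0.130 to 0.192). Between NKT17 and NKT2, 0 of the 7 were called by edgeR's quasi-likelihood test (2.19% of all tested genes) and 0 by DESeq2, and 1 of them, Pim1, had an unadjusted p under 0.05. For Pim1 the difference between NKT2 and NKT1 was 1.52 (SE 0.48, adjusted p = 0.131), which did not pass, although DESeq2 called it (adjusted p = 0.0172), as did edgeR with only the groups compared in the fit (adjusted p = 0.0924) and without WT NKT1 replicate 3 or WT NKT2 replicate 3. Socs1 had a difference of 0.61 between NKT2 and NKT1 (SE 0.21, adjusted p = 0.136), which passed with a replicate block within each genotype (adjusted p = 0.0596) and without WT NKT1 replicate 2 (adjusted p = 0.0929). These 3 differences share libraries in pairs.

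Cytokines start the pathway by binding their receptors. Of the 15 cytokine genes listed, 9 were tested. Of these, 2 were called in SKG NKT1 (3.27% of all tested genes), 2 in SKG NKT2 (7.95%) and 3 in SKG NKT17 (8.37%). Il4, the type 2 cytokine, was 47.5 ± 8.47 CPM in SKG NKT1 and 15.3 ± 9.04 CPM in WT NKT1 (log2 1.65, SE 0.32, adjusted p = 0.00614). In NKT17, Il4 was lower in SKG at 12.3 ± 2.00 against 25.7 ± 4.94 CPM (log2 -1.06, SE 0.32, adjusted p = 0.0494). Il13, another type 2 cytokine, was called higher in SKG NKT1 (adjusted p = 0.0688) but held under 1 CPM in both NKT1 groups, at 0.810 ± 0.242 in SKG and 0.0590 ± 0.102 in WT, and it was called lower in SKG NKT2 at 6.86 ± 2.07 against 19.3 ± 4.62 CPM (adjusted p = 0.0609). In SKG NKT17, Il13 was at 0 in every library. Il17a ran from 6.09 to 83.3 CPM in WT NKT17 and from 6.94 to 10.5 CPM in SKG NKT17, so that the groups overlapped. It was called lower in SKG by edgeR (log2 -2.27, SE 0.73, adjusted p = 0.0939) but not by DESeq2. Il21 was called lower in SKG NKT2 by edgeR but not by DESeq2, at 0.268 ± 0.464 against 4.67 ± 1.68 CPM. Among WT subsets, Ifng was 218 ± 83.1 CPM in NKT1 and 2.65 ± 0.904 CPM in NKT2.

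Cytokine receptor chains decide which signals a cell receives. Of 19 chains tested, 8 were called in SKG NKT2 (7.95% of all tested genes), 7 of them higher. The median log2 difference over the list was 0.68 in NKT2, -0.11 in NKT1 and 0.11 in NKT17. Il4ra, the IL-4 receptor alpha chain, was 70.0 ± 16.7 CPM in SKG NKT2 and 7.50 ± 2.24 CPM in WT NKT2 (log2 3.20, SE 0.24, adjusted p = 9e-09). Il21r was 123 ± 6.81 against 47.3 ± 1.24 CPM (log2 1.38, SE 0.12, adjusted p = 4.9e-08). Il2ra, the IL-2 receptor alpha chain CD25, was 25.6 ± 11.2 against 1.14 ± 1.16 CPM (log2 4.42, SE 0.43, adjusted p = 1.1e-06). Il2rb, the shared chain of the IL-2 and IL-15 receptors, was the 1 chain that fell in SKG NKT2 (log2 -0.64, adjusted p = 0.000439). In SKG NKT1, 3 chains were called (3.27% of all tested genes): Il6ra rose and Ifngr1 and Il2ra fell. Ifngr1 went from 1382 ± 79.7 to 803 ± 27.4 CPM (log2 -0.78, SE 0.11, adjusted p = 0.000188). In SKG NKT17, 6 were called (8.37% of all tested genes), with Il4ra, Il6ra and Il10rb higher and Ifngr1, Il23r and Il2rb lower. For 4 chains, Il2ra, Il4ra, Il7r and Il21r, the SKG difference itself was called more positive in NKT2 than in NKT1 (3.87% of all tested genes). It was for Cish too. For these 4 chains the SKG difference was also called less positive in NKT17 than in NKT2 (2.19% of all tested genes). For Cish the value had the same sign but did not pass (log2 -0.58, SE 0.31, 95% confidence interval -1.22 to 0.06, adjusted p = 0.526 in edgeR). In NKT17 against NKT1, the SKG difference was called more positive for Il2ra, Il4ra and Il10rb (4.17% of all tested genes). It was for Cish too (adjusted p = 0.0640 in edgeR), while Il7r and Il21r were not called there.

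JAKs and STATs carry the signal from the receptors to the genes. Of 11 JAK and STAT genes, all tested, 1 was called between SKG and WT in NKT2 (7.95% of all tested genes). This was Stat4, which relays IL-12 signals and was higher in SKG NKT2 but low in both groups, at 7.74 ± 5.29 against 1.49 ± 0.834 CPM (adjusted p = 0.00603). Stat4 was 436 ± 7.27 CPM in WT NKT1 and 31.2 ± 11.0 CPM in WT NKT17. Neither Stat5a nor Stat5b was called between genotypes, while Stat5b was called higher in WT NKT17 than in WT NKT1 at 119 ± 10.6 against 57.0 ± 8.35 CPM (log2 of NKT1 against NKT17 -1.06, SE 0.13, adjusted p = 1.1e-06).

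Other inhibitors of the pathway were 13 further SOCS, PIAS and phosphatase genes. They gave 0 calls in SKG NKT1, with 1 at an unadjusted p under 0.05 in edgeR and 0 called by DESeq2. Each of the other subsets gave 1 call. Over all tested genes, 3.27% were called in NKT1, 7.95% in NKT2 and 8.37% in NKT17. Pias3, an inhibitor of STAT3, was lower in SKG NKT2 (log2 -0.83, SE 0.30, adjusted p = 0.0904), and Ptpn6, which encodes the phosphatase SHP-1, was lower in SKG NKT17 at 517 ± 87.5 against 807 ± 86.6 CPM (log2 -0.64, SE 0.17, adjusted p = 0.0175). The 6 genes of the ubiquitin ligase that the SOCS box recruits gave 0 calls in edgeR and 0 in DESeq2 in each of the 9 comparisons of groups, with 0 to 2 genes at an unadjusted p under 0.05 in edgeR. Their median log2 difference between SKG and WT stood at 0.01 in NKT1 and NKT2 and at -0.04 in NKT17. In the 9 comparisons, 3.27% to 27.5% of all tested genes were called.

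Beside the members, 16 genes that STATs are known to induce were tested. This list overlaps the other lists: Il2ra is also among the receptor chains above, so its calls are counted in both. Osm, Junb and Cdkn1a stand in other lists too. Of the 16 genes, 2 were called in SKG NKT1 (3.27% of all tested genes), 3 in SKG NKT2 (7.95%) and 2 in SKG NKT17 (8.37%). Bcl2l1, which encodes the survival factor Bcl-xL, rose in SKG NKT1 (91.4 ± 6.36 against 51.0 ± 7.60 CPM, log2 0.84, SE 0.18, adjusted p = 0.00781), where Il2ra fell. Bcl2, a survival factor too, rose in SKG NKT2 (37.5 ± 15.1 against 11.6 ± 7.45 CPM, adjusted p = 0.0294), as did Il2ra and Prdm1. In SKG NKT17 the cyclin Ccnd3 rose from 116 ± 21.8 to 233 ± 19.6 CPM (log2 1.01, SE 0.13, adjusted p = 1.25e-05), and Prdm1, which encodes Blimp-1, rose from 3.74 ± 2.07 to 12.8 ± 3.05 CPM (adjusted p = 0.0362). Of the 10 genes listed as substrates of Pim kinases, 1 was called between genotypes in NKT2 (7.95% of all tested genes). In NKT1 and NKT17, 0 were called by edgeR or DESeq2, with 2 and 3 at an unadjusted p under 0.05 in edgeR. The 1 called in NKT2 was Cdkn1b, the cell cycle inhibitor p27, at 39.9 ± 2.80 in SKG against 25.3 ± 4.28 CPM (log2 0.65, SE 0.16, adjusted p = 0.0123).

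Immediate-early genes, which respond to T cell receptor signals and to handling of the cells, summed to higher levels in the SKG NKT2 libraries, in which Cish and Pim1 rose. The summed level of the 20 genes listed was 1715 to 2910 CPM in WT NKT2 and 3135 to 4502 CPM in SKG NKT2, with a median log2 difference of 0.60 over the 19 tested. Of these, 2 were called in NKT2 (7.95% of all tested genes). Zfp36 was higher (log2 0.68, SE 0.21, adjusted p = 0.0514) and Ier3 was lower (log2 -2.12, SE 0.66, adjusted p = 0.0514). The part of this in the rise of Cish and Pim1 was not tested. In NKT1 the sums overlapped, at 3059 to 5731 CPM in WT and 3459 to 6293 CPM in SKG, as they did in NKT17, at 2610 to 6329 and 4365 to 7371 CPM, where edgeR called 0 genes of the list. In edgeR 3 of them in NKT1 and 2 in NKT17 had an unadjusted p under 0.05, and DESeq2 called 2 and 0. Over all tested genes, edgeR called 3.27% in NKT1 and 8.37% in NKT17.

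Markers of other cells were low, and those of B cells and of double-positive thymocytes were higher in SKG NKT17. The summed NKT1 markers in NKT2 were 298 to 422 CPM in WT and 211 to 298 CPM in SKG, and their part in the differences of Cish and Pim1 in NKT2 was not tested. Il2rb, itself called lower in SKG NKT2, is one of these markers. At 232 ± 21.1 CPM it made up most of the sum in WT NKT2. In NKT17 the 6 B cell markers summed to 7.82 to 11.1 CPM in WT and 24.8 to 40.7 CPM in SKG, of which Cd79b alone passed the filter on low counts, while Pax5 was at 0 in all 6 libraries. The 6 markers of double-positive thymocytes summed to 5.27 to 12.5 CPM in WT NKT17 and 14.3 to 47.5 CPM in SKG NKT17, with Rag1, Rag2 and Dntt at 0 in all 6 libraries. Their part in the higher Cish, Pim1 and Pim2 of SKG NKT17 was not tested. The myeloid markers summed to at most 14.2 CPM and the red cell markers to at most 1.45 CPM in any library.

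For each of the 7 genes the 2 genes with the most similar profile were taken by Pearson's r of log2 CPM over the 18 libraries, among the 8626 other tested genes whose mean count was 50 or more. The libraries of a subset share most of their profile, so that these values largely trace the 6 groups and are given as a description. Cish was closest to Gpr34, a G protein-coupled receptor (r = 0.942), and to 4930523C07Rik (r = 0.934). In NKT1, Gpr34 was 47.0 ± 6.49 CPM in WT and 105 ± 20.8 CPM in SKG. For NKT2 the means were 4.19 ± 2.02 and 37.7 ± 6.23 CPM, and for NKT17 5.15 ± 1.36 and 67.5 ± 3.60 CPM. Its SKG means thus stood above those of WT in each subset, as those of Cish did. Socs1 was closest to Dap (r = 0.954) and 4632428N05Rik (r = 0.949), and Socs2 to Myo1f (r = 0.975) and Arhgap26 (r = 0.974). Socs3 was closest to Cited4 (r = 0.973) and Mmp25 (r = 0.954). Pim1 was closest to Fam65b (r = 0.950) and Phf1 (r = 0.946), Pim2 to Furin (r = 0.970) and Irak2 (r = 0.957), and Pim3 to Tpm4 (r = 0.890) and Tmem2 (r = 0.883). No member was among the 2 closest of another. The 3 Pim kinases had no closest gene in common.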

How the data were processed

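Poly-A RNA of sorted thymic NKT cells was made into libraries by a protocol adapted from Smart-seq2, with tagmentation by Tn5. The authors removed reads of rRNA, tRNA, adapters and spike-ins, aligned the rest with TopHat, removed low-complexity reads, and deposited counts of reads per gene symbol from htseq-count in union mode, with no normalisation. The submitters' processing notes list Bowtie 1.0.0, TopHat 1.4.1, HTSeq 0.7.1, mouse build mm10 and human build hg19. The paper names mouse build mm9 and an earlier version of htseq-count. Neither names the annotation nor the strand setting. Gene positions and lengths here are from GENCODE M1 on NCBIM37, matched by symbol. A further 2 columns of the table match no listed sample and were not used.

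The 18 libraries were fitted together in edgeR 4.0.16 (R 4.3.3; filterByExpr, TMM, robust quasi-likelihood, 12 residual degrees of freedom, common biological coefficient of variation 21.1%), with 1 mean per group. The SE of a log2 fold change is its size divided by the root of the F statistic. Alternatives were DESeq2 1.42.0 (the tool of the study), RLE and upper-quartile scaling, other filters and thresholds, a block by the token in the sample titles (over all libraries or, added after seeing the data, within each genotype), only the groups compared, and each library left out. Scripts were tested on simulated data. The members, gene lists and tests were chosen with earlier results of these data known. All 7 members were to be named, with the 2 most similar genes of each and, from each list, up to 2 called genes with the smallest adjusted p per comparison between genotypes or WT subsets. Some genes that the rule would name are not reported here. Genes named beyond it were chosen after their values were seen. Intervals and counts cover the spread between libraries, whose depth of 4391029 to 8895917 counts limits Socs2 in NKT2 to 2 to 38 counts.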

Additional observations from a re-analysis of the deposited data

Results flagged for a closer look

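The SKG difference varied between subsets for 3 of the 7 genes, by the edgeR test of the difference of log2 fold changes. Against NKT1, it was more positive in NKT2 by 1.62 for Cish (adjusted p = 0.00323), by 1.87 for Pim2 (adjusted p = 1.45e-06) and by 2.27 for Socs3 (adjusted p = 0.00806). Against NKT1, it was more positive in NKT17 by 1.04 for Cish (adjusted p = 0.0640), by 2.10 for Pim2 (adjusted p = 7.71e-07) and by 1.45 for Socs3 (adjusted p = 0.0712). Pim2 and Socs3 fell in SKG NKT1, and Cish rose there less than elsewhere. With 3 libraries a group, no test for a single outlying library was made.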

How the results depend on the processing

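Of 48 called differences of the 7 genes, 38 were called under every alternative, and of 36 that were not called, 26 were called under none. Calls of Cish in NKT2 and NKT17, Socs2 in NKT1, Pim1 in NKT2 and Pim2 in NKT1 and NKT17 between genotypes are among the 38. The adjusted p of Cish in NKT1 ran from 0.0133 to 0.164, of Socs3 in NKT1 from 3.64e-05 to 0.196 and of Pim1 in NKT17 from 0.00266 to 0.363.

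The number of the 7 genes called moved by over 1.5 times in these cases. Without the fold minimum, SKG against WT in NKT2 gave 4 calls, with Socs1 and Pim2 added. Its calls over all tested genes went from 884 to 1270. Leaving out 1 library gave 2 to 4 of the 7 genes for SKG against WT in NKT2. Without SKG NKT2 replicate 2 there were 4, with Socs1 and Socs2 added, and 710 calls over all tested genes. For WT NKT1 against WT NKT17, leaving out 1 library gave 3 to 5. Pim1 and Pim3 were lost without WT NKT1 replicate 1 or WT NKT17 replicate 2. Calls over all tested genes were 2733 and 2768 there, beside 2748. For the SKG difference in NKT17 against NKT1, leaving out 1 library gave 1 to 3. Both Cish and Socs3 were lost without WT NKT1 replicate 1 or WT NKT17 replicate 2 (434 and 523 calls over all tested genes, beside 464). They were also lost without SKG NKT1 replicate 1, or SKG NKT17 replicate 1 or 3 (310, 335 and 296 calls). An adjusted p under 0.05 left 1 call for this difference, Pim2 (278 over all tested genes). With only the groups compared, the SKG difference in NKT17 against NKT2 gave 1 call, Socs3. Its calls over all tested genes went from 244 to 307. The cause was not tested.

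Replicates carry title tokens, of which 7_10 and 7_11 occur in both genotypes. Deviations of libraries with the same token correlated at -0.061 to 0.351 within WT (different tokens -0.369 to 0.224), 0.051 to 0.214 within SKG (-0.152 to 0.046) and -0.151 to 0.090 across genotypes (-0.142 to 0.198). They deviated together within a genotype more than libraries with different tokens did, at a median r of 0.219 against -0.110 in WT and 0.108 against -0.074 in SKG. Every same-token r was over 0.1 for WT NKT2 and WT NKT17 only (0.219 to 0.351), and none was across genotypes. A replicate block by token within each genotype was chosen after seeing the data. It left the 6 calls of WT NKT17 against WT NKT2 and those of the other comparisons of subsets as they were. It added Socs1 to the 3 calls of the SKG difference in NKT2 against NKT1. There, calls over all tested genes went from 430 to 536. A replicate block by token over all libraries gave 4, 3 and 2 calls between genotypes in NKT1, NKT2 and NKT17. Socs3 was added in NKT2 and Pim1 was lost in NKT17. Over all tested genes, the block gave 390, 1044 and 913 calls, beside 364, 884 and 931. With the libraries of the 2 shared tokens only and the block, SKG against WT in NKT1 gave 2 calls (Socs2 and Pim2). WT NKT1 against WT NKT17 gave 3, and the SKG difference in NKT17 against NKT1 gave 1. In that order, calls over all tested genes went from 364 to 217, from 2748 to 2395 and from 464 to 131.

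Signs turned only among differences that were called in no such fit. For the SKG difference of Socs2 in NKT2 against NKT1 (0.003) DESeq2 gave -0.064, RLE scaling -0.015, upper-quartile scaling -0.035, no filter -0.001, a mean of 50 counts -0.014, the block -0.032 and within each genotype -0.035, the shared tokens with the block -0.439, and only the groups compared -0.020. The shared tokens with the block turned Socs3 in NKT17 between genotypes to -0.012 and the SKG difference of Pim1 in NKT17 against NKT1 to -0.214, and upper-quartile scaling that of Pim3 in NKT2 against NKT1 to -0.013. With 1 library left out, the log2 value ran from -0.123 to 0.058 for Socs1 in NKT1 and from -0.032 to 0.147 for Socs3 in NKT17 between genotypes, from -0.389 to 0.105 for Socs3 in SKG NKT1 against NKT2, and for Pim3 in NKT17 against NKT2 from -0.041 to 0.314 in WT and from -0.030 to 0.114 in SKG. For the SKG difference it ran, for Socs2, from -1.075 to 0.632 in NKT2 against NKT1 and from -1.272 to 0.437 in NKT17 against NKT2, and for Pim3 from -0.165 to 0.175 in NKT2 against NKT1, from -0.284 to 0.088 in NKT17 against NKT1 and from -0.280 to 0.076 in NKT17 against NKT2.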
